A study of Mus musculus with 4 samples.

Results

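The levels of 10 genes of the piRNA pathway and of germ cell RNA binding were compared in C3H10T1/2 cells with and without 5-AZA. These genes were Piwil2, Piwil4, Mov10l1, Asz1, Tdrd9, Tdrd1, Tdrd6, Mael, Dazl and Ddx4. They were chosen by name with earlier results of these data known, and all transcripts that the mRNA table assigned to each name were summed. The 10 genes were part of the 21878 genes in that table, and they held 51 of its 75959 transcripts. C3H10T1/2 is a mouse line of mesenchymal progenitor cells, and 5-azacytidine, here 5-AZA, is an analogue of cytidine that blocks DNA methyltransferases. Each group held 2 samples. The 5-AZA cells were exposed to 20 μM 5-AZA for 72 hours and then cultured in fresh medium for 21 days, and the other cells are labelled untreated. The labels attach the same exposure protocol to all 4 samples, so the groups rest on the treatment label and on the methods of the study. No time in culture is given for the untreated cells, so exposure and time in culture cannot be told apart. The study calls the 2 samples of a group biological repeats, but no source says that they were separate exposures, so the p-values measure only the spread between these samples.

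The data held 4 samples, untreated replicates 1 and 2 and 5-AZA replicates 101 and 102. Between 92900000 and 93900000 reads per sample were estimated from the step size of the circRNA values, and the mRNA levels summed to between 328410 and 361664 FPKM. FPKM is a fragment count scaled to the length of the transcript and to the depth of the library, so levels can be compared between genes. No gene of 16 housekeeping genes was listed at 0 in any sample. Among 10 mesenchymal markers, 8 reached 1 FPKM in both untreated samples and 9 in both 5-AZA samples, and Vim stood at 2268 and 2406 FPKM in untreated and at 1178 and 1380 FPKM in 5-AZA cells. The surface marker Nt5e was listed at 0 in both untreated samples. RNA was taken from whole cultures, so more cells with a transcript and more transcript per cell cannot be told apart.

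PIWI-interacting RNAs, or piRNAs, are small RNAs of the germ line that guide PIWI proteins to transposon transcripts. In the mouse testis the PIWI proteins Piwil2 and Piwil4 act in fetal germ cells, where they take part in silencing transposons by cleavage of their RNA and by DNA methylation. Mov10l1 and Asz1 are needed to make piRNAs, and tudor domain proteins gather the pathway in cytoplasmic granules. Dazl and Ddx4 are RNA-binding proteins of germ cells that are widely used as germ cell markers. The pathway is known chiefly from the germ line.

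Promoter sequences are shown for 6 of the genes because 5-AZA acts on cytosine methylation, which in mammals is mainly placed at CpG dinucleotides. DNA methylation was not measured here. The RefSeq promoter table of the GRCm38.p6 build held 11 windows for 8 of the 10 genes, each of 300 bases with 250 before and 50 after the transcription start. Piwil2 and Tdrd6 were not found in it. The stretches are the parts of the windows that lie before the annotated gene. They are given 5′ to 3′ on the strand of the gene, in lower case with each CpG in capitals. The Dazl stretch is chr17:50293621-50293870 on the minus strand, and it holds 20 CpGs in 250 bases. The Asz1 stretch is chr6:18109062-18109311 on the minus strand with 15 CpGs in 250 bases. The Mov10l1 stretch is chr15:88982744-88982890 on the plus strand with 10 CpGs in 147 bases. The Tdrd9 stretch is chr12:111971309-111971487 on the plus strand with 6 CpGs in 179 bases. The Mael stretch is chr1:166238745-166238994 on the minus strand with 18 CpGs in 250 bases, and the Tdrd1 stretch is chr19:56825959-56826170 on the plus strand with 6 CpGs in 212 bases.
Dazl: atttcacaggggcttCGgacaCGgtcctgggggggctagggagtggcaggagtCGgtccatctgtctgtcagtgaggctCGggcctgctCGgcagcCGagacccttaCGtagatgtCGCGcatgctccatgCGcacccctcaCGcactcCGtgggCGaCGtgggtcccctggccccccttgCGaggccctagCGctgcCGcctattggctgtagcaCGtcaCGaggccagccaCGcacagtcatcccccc
Asz1: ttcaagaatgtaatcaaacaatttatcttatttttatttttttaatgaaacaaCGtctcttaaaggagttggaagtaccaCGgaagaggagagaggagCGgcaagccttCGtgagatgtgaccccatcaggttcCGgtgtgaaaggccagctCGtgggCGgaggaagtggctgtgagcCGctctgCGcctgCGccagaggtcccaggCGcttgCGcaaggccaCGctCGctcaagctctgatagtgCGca
Mov10l1: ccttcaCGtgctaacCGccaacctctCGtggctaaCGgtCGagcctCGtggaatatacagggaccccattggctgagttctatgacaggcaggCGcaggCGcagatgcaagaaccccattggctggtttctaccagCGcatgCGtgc
Tdrd9: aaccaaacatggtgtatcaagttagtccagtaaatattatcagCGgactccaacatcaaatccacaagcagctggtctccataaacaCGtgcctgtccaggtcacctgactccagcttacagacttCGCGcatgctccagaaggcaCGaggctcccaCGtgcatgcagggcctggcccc
Mael: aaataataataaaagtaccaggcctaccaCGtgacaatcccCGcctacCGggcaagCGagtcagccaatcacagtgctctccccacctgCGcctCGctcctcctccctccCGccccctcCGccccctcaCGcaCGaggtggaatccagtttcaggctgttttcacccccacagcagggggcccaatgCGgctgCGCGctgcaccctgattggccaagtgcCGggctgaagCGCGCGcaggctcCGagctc
Tdrd1: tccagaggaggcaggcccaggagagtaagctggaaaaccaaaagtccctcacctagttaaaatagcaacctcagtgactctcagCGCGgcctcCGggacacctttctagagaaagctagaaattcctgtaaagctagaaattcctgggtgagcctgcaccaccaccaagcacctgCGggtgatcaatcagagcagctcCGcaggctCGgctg

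The whole windows differed widely in CpG count. Over all 32851 windows of the table the median was 7 CpGs per window. The Ddx4 window held 38 CpGs, more than 95.0% of all windows, and the Dazl window held 28, more than 85.8%. The richest Tdrd1 window held 25, the Mael window 24, the Mov10l1 window 20, the Asz1 window 17, the richest Piwil4 window 11 and the Tdrd9 window 10. Genes that rose after 5-AZA and genes that stayed near 0 in every sample were both found among the richer windows. The median was 20 CpGs over the 5 called genes with a window and 24 over the other 3.

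**Figure D1:**
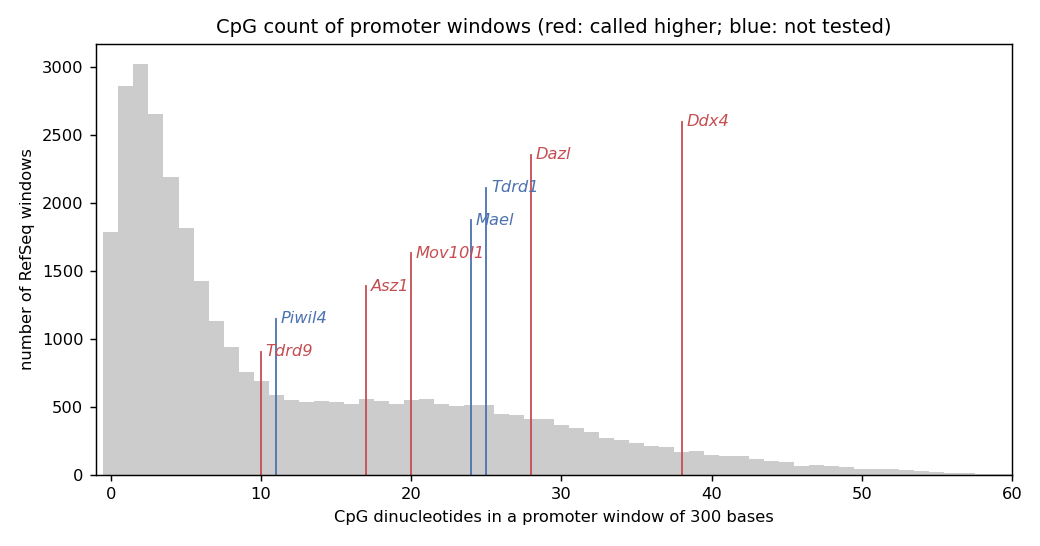
Number of RefSeq promoter windows of 300 bases (y axis) by the number of CpG dinucleotides in the window (x axis). Vertical lines mark the richest window of each of 8 genes, red for genes called higher after 5-AZA and blue for genes not tested, with no meaning in their height. Both colours lie between 10 and 38 CpGs, above the median of 7 of all windows.

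A few short motifs were looked up in the same windows on both strands. The E-box CACGTG, a palindrome, was found in the windows of 5 of the 8 genes, namely Tdrd9, Ddx4, Mov10l1, Mael and Tdrd1, and in 7.15% of all windows. It began 165 and 95 bases before the start in Tdrd9, where it occurred at 2 places, 246 bases before it in Mov10l1, 223 in Mael and 29 in Ddx4. Of the genes called higher after 5-AZA, 3 of the 5 with a window held the E-box, beside 2 of the 3 genes that were not tested. The E2F site GGCGGGAA was found only in the Ddx4 window, 137 bases before the start, and in 2.19% of all windows. Its core GCGGGA, which that site contains, was found in Ddx4 and Mael and in 20.0% of all windows. TGACGTCA, held by 1.79% of all windows, was in none of the 11. Each motif holds a CpG, and the richest window of each gene held 10 to 38 CpGs, beside a median of 7 over all windows. The shares of all windows also count windows, while the 8 genes had 11 windows, so they are no matched background. An excess of a motif was not tested.

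Of the 10 genes, 6 were tested and all 6 were called higher after 5-AZA, namely Dazl, Piwil2, Mov10l1, Asz1, Ddx4 and Tdrd9. The remaining 4, Piwil4, Mael, Tdrd1 and Tdrd6, had a mean below 0.1 FPKM over the 4 samples and were not tested. A gene was called where limma gave an adjusted p under 0.05 and more than a 2-fold change on the scale of log2(FPKM + 0.1). By this rule 1724 of 13199 tested genes, or 13.1%, were called higher and 174, or 1.32%, were called lower. These counts moved to 1041 higher and 886 lower with quantile normalization, to 733 and 70 without 5-AZA replicate 102 and to 925 and 52 without 5-AZA replicate 101. Of the 6 tested genes, 4 (Dazl, Ddx4, Asz1 and Mov10l1) had an untreated mean below 0.1 FPKM, so they passed the limit only through the 5-AZA samples and had to differ. Over all tested genes of that kind, 825 of 1069, or 77.2%, were called higher, beside 899 of 12130, or 7.41%, of the genes with a higher untreated mean. Both 5-AZA samples lay above both untreated samples in 7 of the 10 genes. Over the 17510 genes with a value above 0 in any sample the share was 36%. The 10 genes were chosen with earlier results of these data known, so this is a description and not a test. The 10 genes together summed to 2.17 and 1.51 FPKM in the untreated samples and to 16.4 and 20.9 FPKM in the 5-AZA samples. The median difference over all tested genes was 0.05 on the log2 scale.

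**Figure D2:**
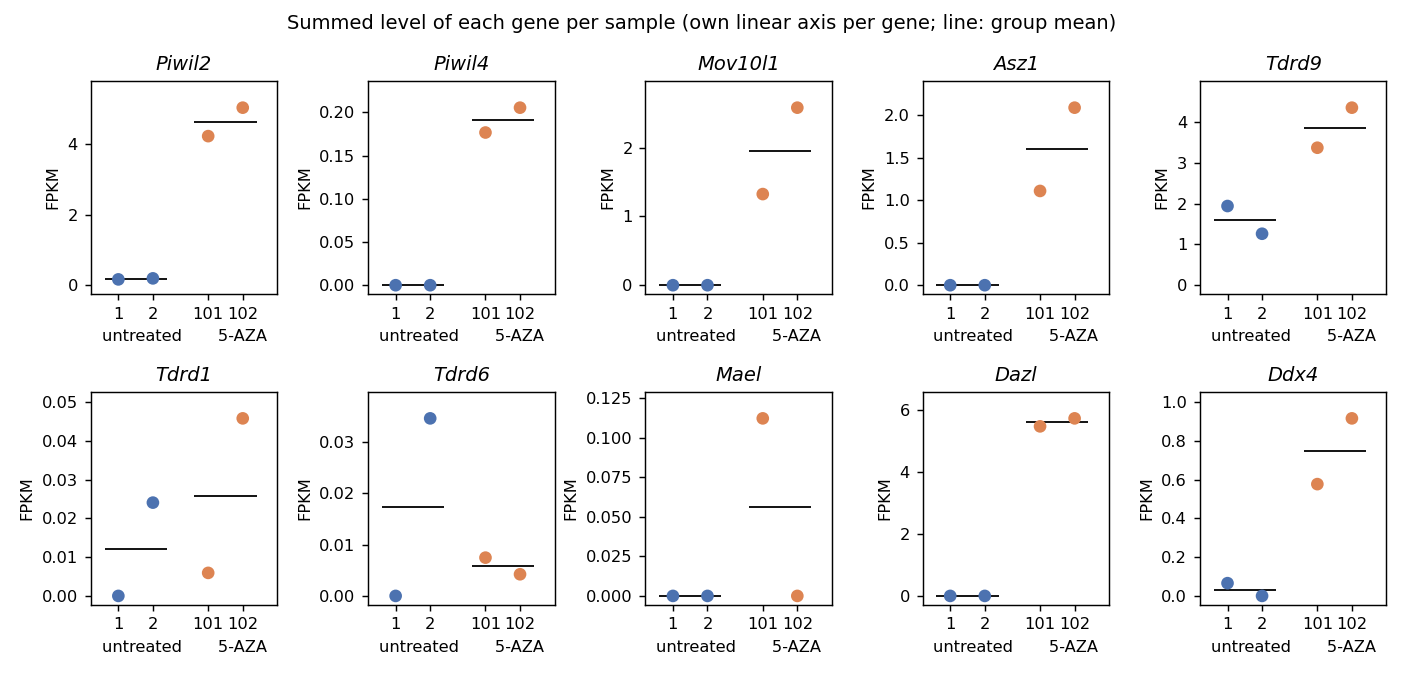
Summed level in FPKM (y axis, linear, its own range for each gene) of the 10 genes in untreated replicates 1 and 2 (blue) and 5-AZA replicates 101 and 102 (orange), with a line at each group mean. The groups are apart in 7 genes and overlap in Mael, Tdrd1 and Tdrd6, whose highest values are 0.112, 0.0459 and 0.0346 FPKM.

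Piwil2 encodes the PIWI protein that slices transposon RNA in fetal and adult male germ cells. Its level was 0.165 and 0.194 FPKM in the untreated samples and 4.22 and 5.02 FPKM in the 5-AZA samples. The groups were far apart, and the untreated samples were both above 0. The mean rose 25.8-fold from 0.179 ± 0.0204 to 4.62 ± 0.570 FPKM (SD, n = 2 each), a log2 difference of 4.08 with a standard error of 0.25 (limma, adjusted p = 8.02e-06). Piwil2 was called under each of 14 settings of the fit, which are the one described and 13 alternatives that change the pseudocount, the limit, the scaling, the transcripts used or the replicates.

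Piwil4 encodes the nuclear PIWI protein that directs DNA methylation of transposons in fetal germ cells. It was listed at 0 in both untreated samples and at 0.177 and 0.205 FPKM in the 5-AZA samples. Both 5-AZA samples thus lay above both untreated samples, at a low level. Its mean over the 4 samples was 0.0955 FPKM, just below the limit of 0.1 FPKM. It was called higher in a fit without that limit (limma, adjusted p = 0.0148). It also reached the limit without untreated replicate 1 or 2, where it was not called (adjusted p = 0.142 in both), so the call held under 1 of 14 settings.

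The helicase Mov10l1 binds the long precursors of piRNAs and is needed to make the small RNAs from them. It was listed at 0 in both untreated samples and stood at 1.32 and 2.58 FPKM in the 5-AZA samples. Asz1 encodes a germ cell protein with ankyrin repeats that sits at mitochondria, where piRNA precursors are cut. It was also listed at 0 in both untreated samples and stood at 1.11 and 2.09 FPKM in the 5-AZA samples. In both genes replicate 102 was well above replicate 101, and in both the groups did not overlap. Mov10l1 averaged 1.95 ± 0.888 FPKM and Asz1 1.60 ± 0.692 FPKM after 5-AZA (SD, n = 2). Both were called higher (limma, adjusted p = 7.15e-05 for Mov10l1 and 0.000105 for Asz1) under each of 14 settings. With a 5-AZA replicate left out, the only spread for either gene was between untreated values of 0, so those calls add no support. No fold is given for genes listed at 0 in a group, since its size would depend on the pseudocount.

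Among the tudor domain genes, Tdrd9 encodes a helicase that works with Piwil4 in transposon silencing. It was the only one of the 10 genes above 1 FPKM before 5-AZA, at 1.94 and 1.26 FPKM, and it stood at 3.37 and 4.35 FPKM afterwards. The groups did not overlap, but the untreated samples differed from each other by more than in Piwil2. The mean rose 2.41-fold from 1.60 ± 0.480 to 3.86 ± 0.694 FPKM (SD, n = 2 each), a log2 difference of 1.24 with a standard error of 0.25 (limma, adjusted p = 0.00741). This change stood near the 2-fold limit and was called under 8 of 14 settings. It was not called without 5-AZA replicate 101 (log2 difference 1.42, adjusted p = 0.155), without 5-AZA replicate 102 (1.06, adjusted p = 0.215) or without untreated replicate 2 (0.95, under 2-fold).

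The scaffold genes Tdrd1 and Tdrd6, which hold PIWI proteins in germ granules, stayed near 0. Tdrd1 was listed at 0 and 0.0241 FPKM in the untreated and at 0.00595 and 0.0459 FPKM in the 5-AZA samples. Tdrd6 was listed at 0 and 0.0346 FPKM in the untreated and at 0.00745 and 0.00421 FPKM in the 5-AZA samples. The groups overlapped in both genes. Mael, a nuclear and granule protein needed for transposon silencing in the testis, had a value above 0 in a single sample, 5-AZA replicate 101 with 0.112 FPKM. In the fit without a limit on low values these genes were not called (limma, adjusted p = 0.707 for Tdrd1, 0.680 for Tdrd6 and 0.512 for Mael), and at such levels a change of a small size was not detectable.

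Dazl encodes an RNA-binding protein that controls the translation of germ cell transcripts. It was listed at 0 in both untreated samples and stood at 5.48 and 5.74 FPKM in the 5-AZA samples, with a mean of 5.61 ± 0.183 FPKM (SD, n = 2). Replicates 101 and 102 were closer to each other here than in Mov10l1 or Asz1. It was called higher (limma, adjusted p = 2.01e-06) under each of 14 settings. With a 5-AZA replicate left out, the only spread for Dazl was between untreated values of 0, so those calls add no support. Its 5-AZA mean was above that of 45.3% of all tested genes, so the level reached was near the middle of the expressed genes.

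Ddx4, the helicase also called Vasa, is a core component of germ granules. It stood at 0.0659 and 0 FPKM in the untreated samples and at 0.578 and 0.917 FPKM in the 5-AZA samples. The groups did not overlap, and the 5-AZA mean of 0.747 ± 0.240 FPKM (SD, n = 2) was above that of 13.7% of tested genes. It was called higher (limma, adjusted p = 0.00157) under 9 of 14 settings. The call was lost without 5-AZA replicate 101 (adjusted p = 0.0844), without 5-AZA replicate 102 (adjusted p = 0.108) and without a limit on low values (adjusted p = 0.0587).

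In the 5-AZA cells the order of the mean levels was Dazl, Piwil2, Tdrd9, Mov10l1, Asz1, Ddx4, Piwil4, Mael, Tdrd1 and Tdrd6. Piwil2 was above Tdrd9 and Mov10l1 above Asz1 within each of the 2 samples, although the ranges over the samples overlapped in both pairs. The order of Mael, Tdrd1 and Tdrd6 differed between the 2 samples, so these 3 cannot be ordered. In the untreated cells Tdrd9 came first and Piwil2 second, and no other of the 10 genes exceeded 0.0659 FPKM. Replicate 102 was above replicate 101 in 8 of the 10 genes, with a median ratio of 1.29 over the 7 genes with a level to compare. The median ratio was 1.11 over the 12893 tested genes above 0.1 FPKM in both 5-AZA samples. With 2 samples a group, an exact two-sided permutation test of a single gene cannot give a p below 0.333, so the calls rest on the spread that limma shares across genes.

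The transcripts of each gene were then examined, since the table gives 17 curated and 34 predicted transcripts for the 10 genes. Of these, 15 reached the limit and 3 were called higher on their own, against 2.1% of the 35557 transcripts tested. Like 11 of the 15, these 3 had an untreated mean below the limit and passed it only through the 5-AZA samples. Over all transcripts of that kind, 333 of 3580, or 9.3%, were called higher. The 3 were the curated transcripts NM_010021.5 of Dazl, NM_021308.1 of Piwil2 and NM_023729.3 of Asz1 (limma, adjusted p = 0.00908, 0.0112 and 0.0476). No transcript was called lower. The 3 transcripts held 82.3%, 80.6% and 72.5% of the 5-AZA level of their gene.

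Piwil2 was carried by different transcripts before and after 5-AZA. The curated NM_021308.1 stood at 0.000691 and 0.0000160 FPKM in the untreated samples and at 3.66 and 3.78 FPKM in the 5-AZA samples. The predicted XM_006519328.1 stood at 0.163 and 0.194 FPKM in the untreated samples, 99.6% of the level of the gene, and at 0.343 and 0.348 FPKM in the 5-AZA samples, 7.47% of it. This predicted transcript was not called (limma, adjusted p = 0.645). The untreated level of Piwil2 was therefore almost wholly that of 1 predicted transcript. The shift between transcripts was not tested by itself, and the division of shared fragments among transcripts is an estimate of the authors' software.

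In Tdrd9 the curated NM_029056.1 held 72.1% of the level before and 71.9% after 5-AZA, at 1.31 and 0.996 FPKM in untreated and 2.55 and 3.00 FPKM in 5-AZA samples. By itself it was not called (limma, adjusted p = 0.165). In Mov10l1 the curated NM_031260.2 and the predicted XM_006521555.1 had nearly equal shares of 43.1% and 42.2% of the 5-AZA level. In Ddx4 the 5-AZA samples differed, with the predicted XM_011244622.2 at 0.000355 FPKM in replicate 101 and 0.477 FPKM in replicate 102. The summed levels of Ddx4 in these samples, 0.578 and 0.917 FPKM, were closer to each other. The small values of Tdrd1 were spread over 11 transcripts and those of Tdrd6 over 7, with no Tdrd1 or Tdrd6 transcript above a 5-AZA mean of 0.00354 FPKM.

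**Figure D3:**
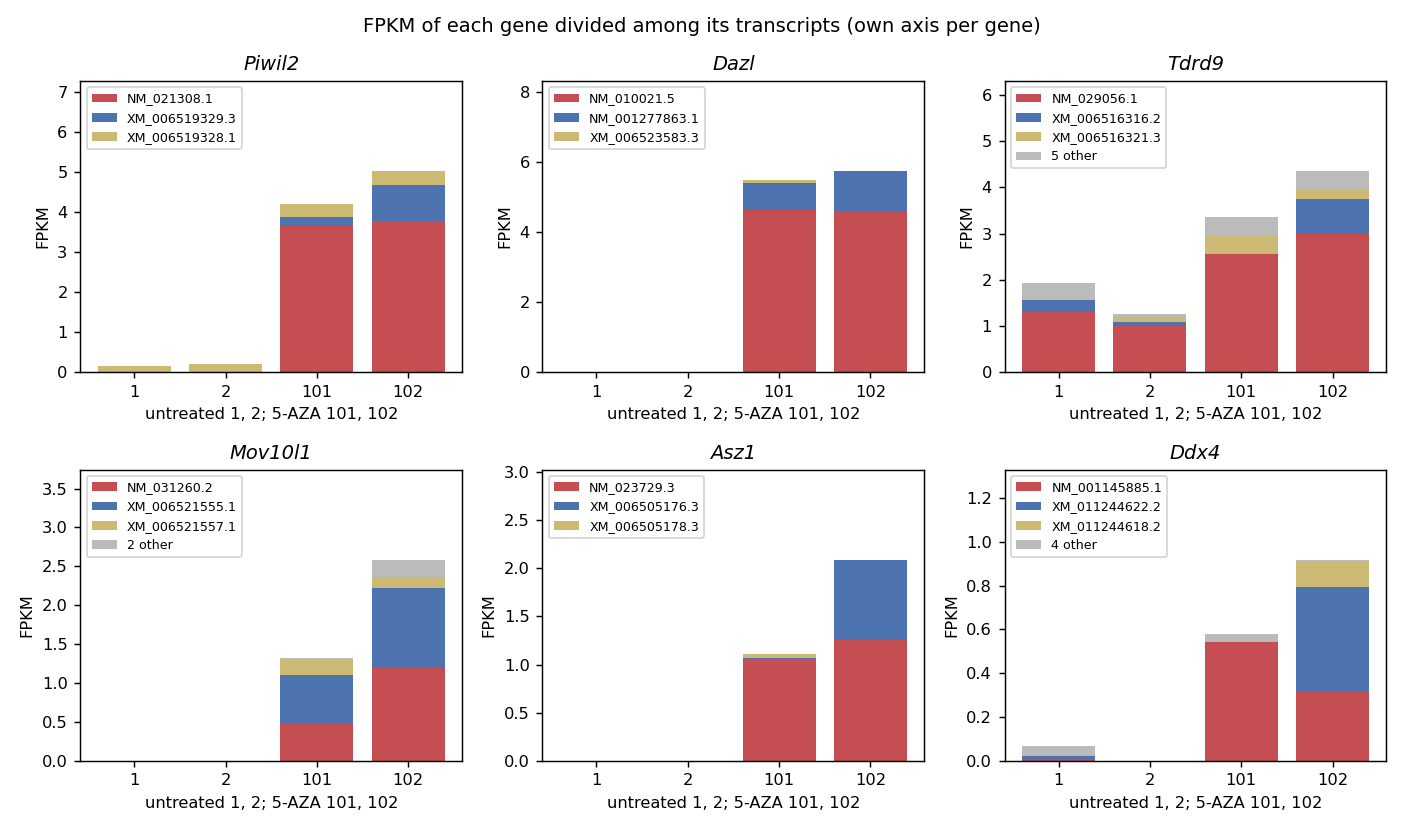
Level in FPKM (y axis, its own range for each gene) of the 6 called genes in untreated replicates 1 and 2 and 5-AZA replicates 101 and 102, with each bar divided among the 3 transcripts of highest 5-AZA mean and the others in grey. NM_021308.1 holds 80.6% of Piwil2 in the 5-AZA samples, while the untreated bars are almost all XM_006519328.1.

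A wider list of 24 other piRNA pathway genes was read from the same fit. The table held 23 of them. The 12 that reached the limit were tested, and the rest had a mean below 0.1 FPKM over the 4 samples. Of the 12, 8 were called higher and none lower. Of these 12, 8 had an untreated mean below the limit and so had to differ to be tested, and 7 of the 8 were called, beside 77.2% of all genes of that kind. Of the other 4, 1 was called, beside 7.41% of the 12130 tested genes with an untreated mean at or above the limit. Both 5-AZA samples lay above both untreated samples in 16 of the 23, beside 36% of all genes with a value above 0. The 23 include 1 gene at 0 in all samples, which that share leaves out. This list too was chosen with earlier results of these data known, so the count is a description. The summed level was 16.2 and 13.1 FPKM in untreated and 57.7 and 68.6 FPKM in 5-AZA samples. The median log2 difference of the 12 was 2.22. Since 8 of the 12 had to differ to be tested, it cannot be set against the 0.05 over all tested genes.

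The highest of these were Gtsf1 and Tex19.1. Gtsf1, a zinc finger partner of PIWI proteins, was listed at 0 in both untreated samples and stood at 12.3 and 15.9 FPKM in the 5-AZA samples. Tex19.1, a germ cell protein that limits transposons, went from 0.0443 and 0.0425 FPKM to 13.9 and 16.7 FPKM (log2 difference 6.74). Its paralog Tex19.2, which could share reads with it, went from 0 and 0.0164 FPKM to 1.54 and 2.15 FPKM. Fkbp6, a co-chaperone in piRNA loading, went from 0.0329 and 0 FPKM to 7.65 and 10.2 FPKM. These 4 genes were called under each of 14 settings. With a 5-AZA replicate left out, the only spread for Gtsf1 was between untreated values of 0, so those calls of Gtsf1 add no support. Gtsf1, Tex19.1 and Fkbp6 thus reached higher levels after 5-AZA than Dazl, the highest of the 10 genes.

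The other 4 called genes of the pathway were Gpat2, Tex15, Pnldc1 and Rnf17. Gpat2, a mitochondrial protein of piRNA production, went from 0.0285 and 0 FPKM to 1.50 and 2.24 FPKM. Tex15, which works beside Piwil4 in transposon methylation, went from 0.0526 and 0.0273 FPKM to 0.739 and 0.879 FPKM. Pnldc1, the nuclease that trims piRNA ends, was present before 5-AZA at 0.410 and 0.379 FPKM and rose to 1.61 and 1.51 FPKM (log2 difference 1.75). Rnf17, a tudor domain protein, was listed at 0 in both untreated samples and at 0.210 and 0.264 FPKM in the 5-AZA samples. Pnldc1 was not called without 5-AZA replicate 101 (limma, adjusted p = 0.0505) or 102 (0.0532), and Rnf17 not without untreated replicate 1 (0.0726) or 2 (0.0727).

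The 4 tested genes that were not called were Tdrd7, Mybl1, Btbd18 and Exd1. Tdrd7, a tudor domain protein that also acts outside the germ line, stood at 8.12 and 7.18 FPKM in untreated and 11.0 and 11.3 FPKM in 5-AZA samples, which was under 2-fold (limma, adjusted p = 0.0177). The transcription factor Mybl1, which drives piRNA precursors in meiotic cells, stood at 7.40 and 5.10 FPKM in untreated and 6.20 and 6.44 FPKM in 5-AZA samples, and the groups overlapped. Piwil1, the PIWI protein of meiotic and later germ cells, was listed at 0 in all samples. Of the PIWI proteins of the mouse, Piwil2 thus averaged 4.62 FPKM and Piwil4 0.191 FPKM after 5-AZA, and Piwil1 was listed at 0.

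Among 18 other germ cell RNA-binding genes, 9 reached the limit, 4 were called higher and none lower. All 4 calls fell among the 5 genes with an untreated mean below the limit, a share near the 77.2% of all genes of that kind, and none of the other 4 tested genes was called. The median log2 difference of the 9, of which 5 passed the limit only through the 5-AZA samples, was 1.44. The list summed to 9.72 and 8.82 FPKM in untreated and 13.7 and 15.6 FPKM in 5-AZA samples. Dnd1, which protects germ cell transcripts from microRNAs, went from 0.0827 and 0.0518 FPKM to 1.26 and 1.78 FPKM (log2 difference 3.26) and was called under each of 14 settings. Stk31, a tudor and kinase domain protein, was listed at 0 in both untreated samples and at 0.597 and 0.690 FPKM after 5-AZA, and was called under 11. Nxf2, an RNA export factor, was listed at 0 in both untreated samples and at 0.356 and 0.189 FPKM after 5-AZA, and Rbm44 went from 0 and 0.0201 FPKM to 0.200 and 0.312 FPKM. Their calls held under 5 and 4 settings only. Without untreated replicate 1, without untreated replicate 2 or without 5-AZA replicate 101, 2 genes of this list were called. Nanos2, Boll, Lin28a, Rbmxl2 and Adad1 were listed at 0 in all samples.

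**Figure D4:**
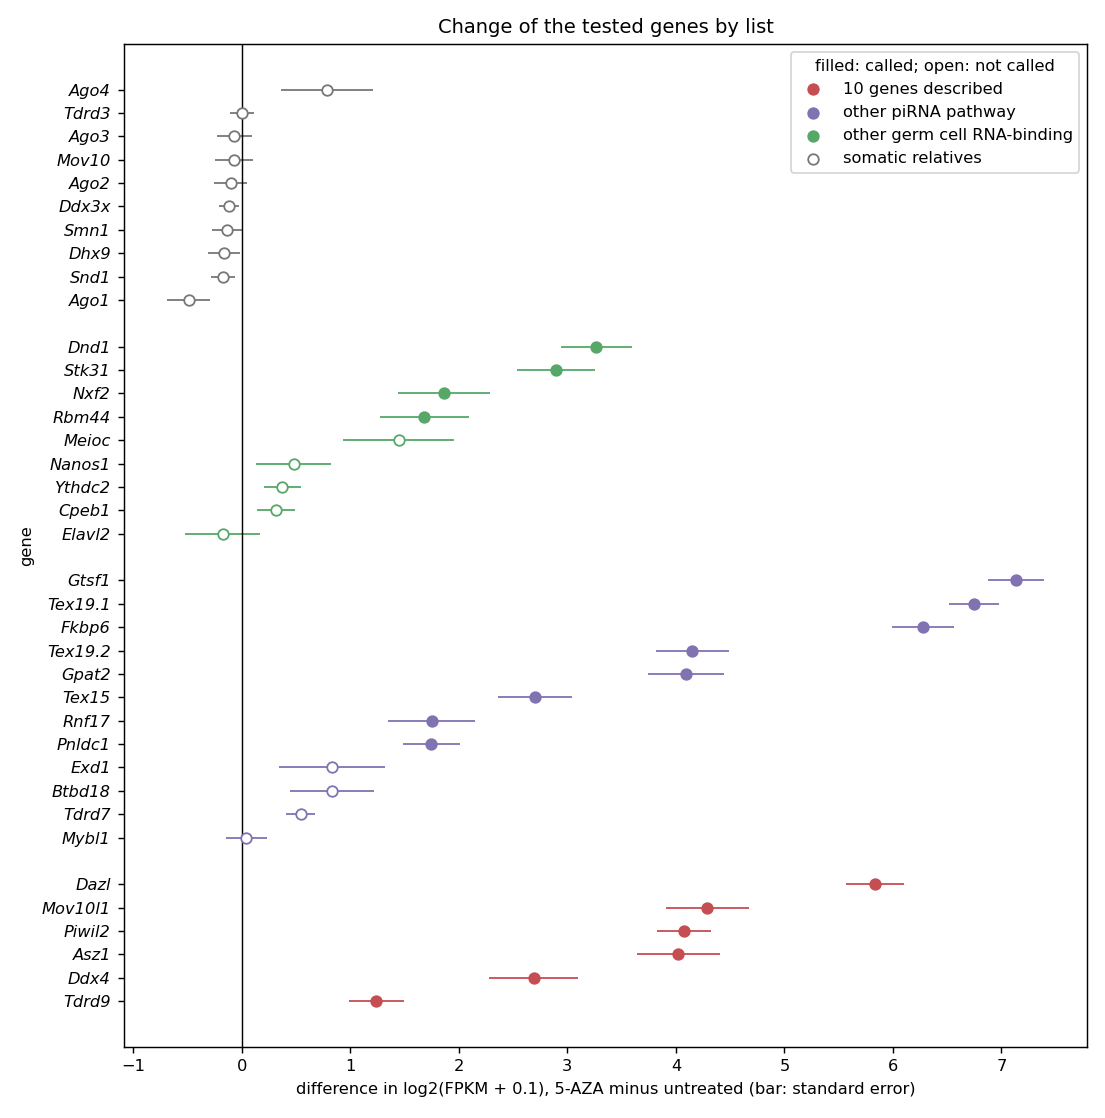
Difference in log2(FPKM + 0.1), 5-AZA minus untreated (x axis), with its standard error for each tested gene (y axis) of 4 lists, filled where called and open where not. The 6 tested genes described here lie between 1.24 and 5.83, and the 10 somatic relatives lie around 0 with none called. Of the 6, 4 had an untreated mean below the limit and had to differ to be tested, unlike the relatives. For genes listed at 0 in the untreated samples the position depends on the pseudocount of 0.1 FPKM.

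Somatic relatives of the 10 genes were tested beside them. These relatives include the Argonaute genes, Mov10, Ddx3x and tudor domain genes of general use. All 10 reached the limit, none was called in either direction, and their median log2 difference was -0.11. All 10 also had an untreated mean at or above the limit, and 7.41% of all tested genes of that kind were called higher. No call among 10 genes is close to that share. The 10 relatives summed to 273 and 269 FPKM in untreated and 242 and 256 FPKM in 5-AZA samples. Of 9 genes listed as widely expressed partners of PIWI proteins, such as Hsp90aa1 and Fkbp4, 7 reached the limit and were tested. All 7 had an untreated mean at or above the limit, none was called, and the median was 0.00, the value of Tdrd3. Mov10, Snd1 and Tdrd3 were on both lists, so the partners and the relatives are not separate results. The somatic Mov10 stood at 3.42 and 3.81 FPKM in untreated and 3.22 and 3.64 FPKM in 5-AZA samples, so its level overlapped between groups where that of its germ cell relative Mov10l1 did not.

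Markers of other cells were read in the same samples. Of 18 germ cell identity and stage markers, 9 were listed at 0 in all samples, among them Pou5f1 and Prm1. Tnp2 had the highest mean of the 18, with 2.62 and 4.29 FPKM in untreated and 4.61 and 3.48 FPKM in 5-AZA samples. Its groups overlapped, and it was not called (limma, adjusted p = 0.539). Only 5 of the 18 were tested, and of these none was called higher and 1 was called lower. Both 5-AZA samples lay above both untreated samples in 5 of the 18 and below in 1. Over all 17510 genes with a value above 0 in any sample, they lay above in 36%. That share leaves out genes at 0 in all samples, while the 18 markers include 9 of them. Among the markers with a value above 0 the share is therefore larger than 5 of 18. The list summed to 5.64 and 8.07 FPKM in untreated and 7.59 and 7.11 FPKM in 5-AZA samples. The call was Sox2, which fell from 1.57 and 2.01 FPKM to 0.320 and 0.222 FPKM. The spermatogonial receptor Gfra1 stood at 1.26 and 1.31 FPKM in untreated and 2.20 and 2.51 FPKM in 5-AZA samples, which was under 2-fold (limma, log2 difference 0.82, adjusted p = 0.0232). The meiotic entry gene Stra8 stood at 0.0364 and 0 FPKM in untreated and 0.115 and 0.370 FPKM in 5-AZA samples and was not called (limma, adjusted p = 0.0658). Of 9 markers of somatic testis cells, 1 was tested and not called, and they summed to 0.198 and 0.380 FPKM in untreated and 0.574 and 0.774 FPKM in 5-AZA samples. All 8 skeletal muscle markers were called higher. Of these, 5 had an untreated mean below the limit, a kind of which 77.2% of all tested genes were called higher. The other 3 had an untreated mean at or above the limit, where 7.41% were called higher. The 8 markers summed to 1.44 and 1.01 FPKM in untreated and 721 and 1117 FPKM in 5-AZA samples. Replicate 102 was above replicate 101 in 8 of the 8, with a median ratio of 1.58. The muscle markers thus rose in the same contrast as the 6 called genes of the 10, and their part in the result was not tested.

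circRNAs and lncRNAs at the same genes were described without a test. None of 4295 circRNAs was listed with any of the 10 genes as host. The lncRNA table placed 19 lncRNAs on or within 5 kb of 9 of the genes, and none near Dazl. Of these, 4 reached 0.1 FPKM in any sample, and in none of the 4 were the groups apart. The highest of them on a gene was NONMMUT021474.2, which overlaps Piwil2 at chr14:70434720-70436595 on the minus strand, at 0.148 and 0.341 FPKM in untreated and 0.145 and 0.167 FPKM in 5-AZA samples. At Piwil4, which lies on the minus strand, NONMMUT068143.2 at chr9:14704642-14719058 on the plus strand was listed at 0 in both untreated samples and at 0.0309 and 0.0321 FPKM in the 5-AZA samples. The library kit keeps strand, but no source states that the quantification used it, so reads of Piwil4 and of this lncRNA may not have been kept apart.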

How the data were processed

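Ribosome-depleted stranded total RNA of 2 untreated and 2 5-AZA samples was sequenced. The submitters' processing notes name Trimmomatic, HISAT2, Bowtie2 2.2.9 and eXpress 1.5.1. They name the build mm9, but 1738 of 2388 circRNA host transcripts (72.8%) had a start or end within 1 base of a RefSeq GRCm38.p6 gene, so coordinates are given as GRCm38. The authors deposited FPKM values per transcript for mRNAs and lncRNAs, with the length and number of exons of each lncRNA, and RPM values for circRNAs. RPM was used only for read totals and host genes. Depth limits the low values, and fragment counts per gene were not used here.

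FPKM was summed per gene. Genes with a mean of at least 0.1 FPKM were compared on log2(FPKM + 0.1) with limma 3.58.1 (eBayes with trend) in R 4.3.3 and Benjamini-Hochberg adjustment over all 13199 genes. The count test of the study, DESeq, could not be run because the values are not counts. The fit was tested on simulated data, with changes added only to genes whose untreated mean of log2(FPKM + 0.1) was above 0. It therefore does not cover genes with a low untreated level, such as Dazl and Piwil2. The 10 genes and all lists were chosen with earlier results of these data known. All 10 genes and each called gene of the 2 wider lists were named, with at most 4 genes of each other list by level or as markers at 0. Stra8, Tnp2 and Mov10 were named outside this rule after their values were seen. Alternatives were pseudocounts of 0.01 and 1 FPKM, no limit, a limit of 0.5 FPKM, median centring, quantile normalization, curated or highest transcripts only, no trend, and leaving out each replicate. Transcripts were tested alike. Sequences were copied from the RefSeq table.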

Additional observations from a re-analysis of the deposited data

How the results depend on the processing

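Dazl, Piwil2, Asz1 and Mov10l1 were called higher in the main fit and in all 13 alternatives, and 4 to 6 of the 10 genes were called throughout. With a pseudocount of 1 FPKM the counts were 875 genes higher, 86 lower, 5 other piRNA pathway genes and 1 other germ cell RNA-binding gene, and Ddx4 (log2 difference 0.75) and Tdrd9 (0.91) fell under 2-fold. Without a limit on low values 83 genes were lower and 2 other germ cell RNA-binding genes were called, and Ddx4 (2.69, adjusted p = 0.0587) and Tdrd9 (1.24, adjusted p = 0.119) were not. With a limit of 0.5 FPKM, which Ddx4 did not reach, 1 other germ cell RNA-binding gene was called. With quantile normalization 1041 genes were higher and 886 lower, so that 54% of calls were higher beside 90.8% in the main fit and 86.4% with median centring, and Tdrd9 stood at 0.91 (adjusted p = 0.0209). These scalings moved the median difference over all tested genes to -0.12 and -0.06. With curated transcripts only, 4 other piRNA pathway genes and 1 other germ cell RNA-binding gene were called, and with the highest transcript only, 2 of the latter. Leaving out 1 replicate gave 733 (without 5-AZA replicate 102) to 1617 genes higher, 925 without 5-AZA replicate 101, and 52 (without 5-AZA replicate 101) to 184 genes lower, 70 without 5-AZA replicate 102. It gave 6 to 7 other piRNA pathway genes and 2 to 4 other germ cell RNA-binding genes, and the difference ran from 0.95 to 1.53 for Tdrd9 and from 2.32 to 3.05 for Ddx4. The causes were not tested. A group left with 1 sample was assumed to vary like the other group. Genes such as Dazl, Asz1, Mov10l1, Gtsf1 and Stk31 were listed at 0 in both untreated samples. With a 5-AZA replicate left out, their spread was 0 before limma shared it across genes, so those calls add no support. At an unadjusted p under 0.05, 3220 genes were higher and 1464 lower. No paired analysis was possible because the groups share no replicate numbers. Values under 0.1 FPKM were too low for a comparison.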
